A study of Mus musculus with 6 samples.

Results

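Ion channel subunits and nicotinic acetylcholine receptor subunits were followed in the adrenal glands of chromogranin A (Chga) knockout and wild-type mice. Members were all probe sets, the groups of short probes that stand for a transcript on the array, whose single platform symbol begins with Cacna, Cacnb, Cacng, Kcn, Scn followed by a digit, or Chrn followed by a, b, d, e or g. The rule found 83 probe sets of 68 genes, out of 12422 probe sets of 8251 named genes. 54 of the genes had 1 probe set, 13 had 2 and 1, Chrne, had 3, and each gene is given by the probe set with the highest mean signal over the 6 arrays unless another is named.

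Glands came from male mice of 12 weeks, and 3 arrays held RNA of the Chga knockout strain and 3 that of the wild-type strain described with it. No treatment is given in the labels. The labels limit the knockout to no cell type, and whole glands were used, so that cortex and medulla are mixed in each sample. Fewer cells of a type and less RNA per cell cannot be told apart in such samples. Chga itself read 46719, 30213 and 35306 on the wild-type arrays and 1189, 858 and 951 on the knockout arrays by its brighter probe set (limma adjusted p = 5.29e-06).

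The medulla is made of chromaffin cells, which are electrically excitable. Acetylcholine from the splanchnic nerve opens nicotinic receptors on them, sodium and calcium channels then carry the depolarization, calcium entry through voltage-gated channels triggers the release of catecholamine granules, and potassium channels repolarize the membrane. In the cortex, background potassium channels keep the membrane potential of aldosterone-producing zona glomerulosa cells negative, and angiotensin II and extracellular potassium act through that potential.

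Most channel genes gave little signal in the whole gland. The median wild-type signal was 322.6 over the 68 channel genes and 1034 over all probe sets, and 25 channel genes had a wild-type mean under 200. Signals are linear MAS5 values with no unit, and those of different probe sets are not set against each other as amounts of transcript. A probe set was tested when its mean log2(signal + 16) over the 6 arrays reached the 40th percentile of all probe sets, a signal near 582. This left 22 channel probe sets (26.5%, against 60% of all probe sets) and 20 genes, and 48 genes were dim. Just inside the filter lay Kcnj9, Kcnab2 and Kcnn1, whose mean log2 values stand for signals of 613.8, 667 and 765.2, and just outside it Kcns2, Chrng and Chrnd, at 558.7, 546.7 and 523.5.

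None of the 20 channel genes tested passed the threshold of the comparison between genotypes. Over all 7453 probe sets tested, 33 passed an adjusted p of 0.05 (0.443%, limma with Benjamini-Hochberg adjustment over all of them), 12 higher and 21 lower, and the smallest adjusted p of a channel gene was 0.206. At an unadjusted p under 0.05 there were 5 channel genes, 4 higher and 1 lower in the knockout (25% of the 20), where the share over all probe sets tested was 11.3%, with 5.06% higher and 6.25% lower. These were Cacna1c, Kcnma1, Kcnn1 and Kcnk1, with higher values, and Kcnk2, with lower ones. Of the 20, Kcnn1 and Kcnab2 had wild-type means below the filter and Kcnj9 a knockout mean below it (on the log2 scale), so that each was tested through the other genotype and these counts are no support. In the same 5 genes, and in no other of the 20, the values of the genotypes did not overlap, as held for 16.4% of all probe sets tested. Without the filter the share of channel genes was 7.35% for an unadjusted p under 0.05 (5 of 68) against 8.75% of all probe sets, and 10.3% for separated groups (7 of 68) against 13.5%. The median log2 change was 0.10 over the 20 genes, with 13 values higher and 7 lower, beside -0.01 over all probe sets tested. That median was 0.40 without wild-type array 2 and -0.03 without wild-type array 1. The filter was redone in these fits, so the medians are over 19 and 21 channel genes.

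**Figure D1:**
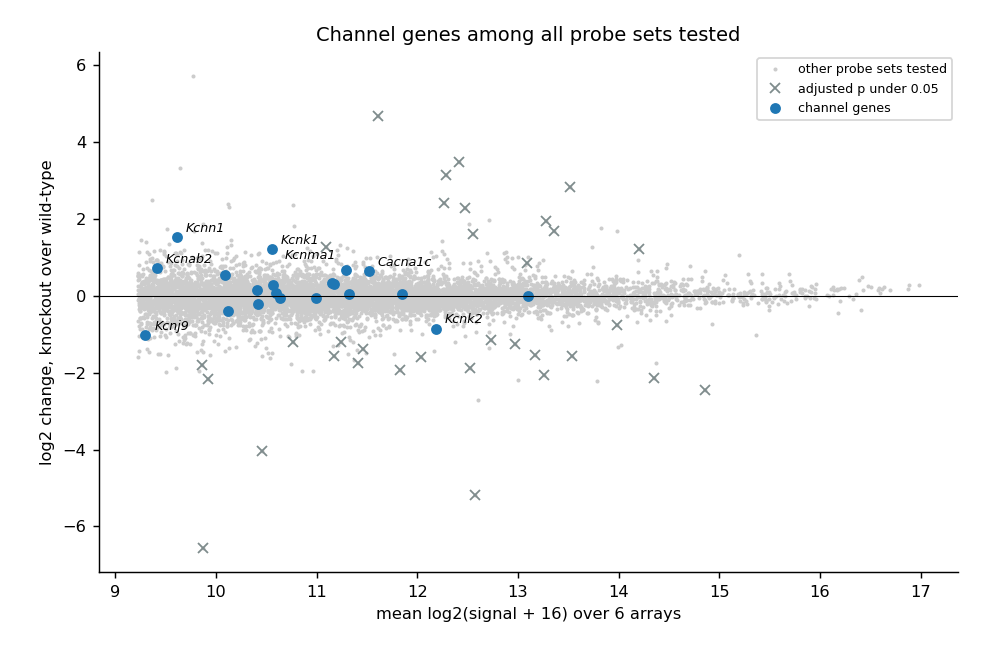
Log2 change (knockout over wild-type) against mean log2(signal + 16) over the 6 arrays for the 7453 probe sets tested, with the 20 channel genes in blue and the 33 probe sets past an adjusted p of 0.05 as crosses. No blue point is a cross; Kcnn1 and Kcnk1 lie highest and Kcnj9 and Kcnk2 lowest among the channel genes.

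The starts of these 5 genes are shown because their values separated the genotypes. AP-1 and Egr motifs were searched because genes of such factors, Junb by its brighter probe set, Fos and Egr1, rose in these knockout glands (limma adjusted p = 0.000139, 0.0403 and 0.000861). A probe set of Jun, another AP-1 gene, did not pass the threshold (log2 change 0.28, limma adjusted p = 0.783). The cyclic AMP response element was searched as well, and this reason does not cover it. Each line gives the 250 bases before a start of the gene, 5′ to 3′ on the gene's strand, from RefSeq on GRCm38.p6. Capitals mark matches on either strand to TGANTCA (the AP-1 element), TGACG (the short form of the cyclic AMP response element), GCGGGGGCG or GCGTGGGCG (Egr elements). Where RefSeq lists several starts, the window with most matches is given, and the most upstream of equals.
Cacna1c (chr6:119196410-119196659, minus strand): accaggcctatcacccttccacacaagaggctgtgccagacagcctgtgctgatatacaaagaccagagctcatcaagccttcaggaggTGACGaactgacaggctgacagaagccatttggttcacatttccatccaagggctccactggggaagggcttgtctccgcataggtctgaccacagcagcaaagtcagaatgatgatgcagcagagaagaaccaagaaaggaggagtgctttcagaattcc
Kcnma1 (chr14:24004206-24004455, minus strand): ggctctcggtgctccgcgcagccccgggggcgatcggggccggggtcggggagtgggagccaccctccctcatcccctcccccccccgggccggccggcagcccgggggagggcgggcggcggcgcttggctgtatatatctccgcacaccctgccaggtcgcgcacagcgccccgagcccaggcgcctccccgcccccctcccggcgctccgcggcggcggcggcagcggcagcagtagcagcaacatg
Kcnn1 (chr8:70863259-70863508, minus strand): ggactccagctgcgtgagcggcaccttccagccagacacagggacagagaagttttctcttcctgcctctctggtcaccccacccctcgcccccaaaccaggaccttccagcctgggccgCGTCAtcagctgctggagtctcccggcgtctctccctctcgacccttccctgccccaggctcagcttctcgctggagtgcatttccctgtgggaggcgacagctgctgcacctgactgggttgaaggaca
Kcnk1 (chr8:125994852-125995101, plus strand): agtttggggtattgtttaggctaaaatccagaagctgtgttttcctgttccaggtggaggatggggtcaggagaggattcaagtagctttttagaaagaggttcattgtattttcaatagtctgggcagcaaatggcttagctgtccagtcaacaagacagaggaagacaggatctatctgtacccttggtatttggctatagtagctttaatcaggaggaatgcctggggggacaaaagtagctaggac
Kcnk2 (chr1:189344193-189344442, minus strand): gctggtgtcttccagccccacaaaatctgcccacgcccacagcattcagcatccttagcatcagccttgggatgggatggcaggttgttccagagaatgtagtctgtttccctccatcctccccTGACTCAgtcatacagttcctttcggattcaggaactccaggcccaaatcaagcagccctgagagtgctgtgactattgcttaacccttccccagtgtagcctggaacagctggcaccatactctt
The Cacna1c and Kcnn1 windows each hold 1 TGACG short element, 161 and 130 bases before the start, and the other 2 windows of Cacna1c and the other window of Kcnn1 hold no match. The Kcnk2 window holds TGACTCA 126 bases before the start, and another of its 4 windows holds GCGGGGGCG. No match was found in the Kcnma1 window, with 79.2% G and C, or in the Kcnk1 window, with 44.4%. RefSeq windows were found for 52 of the 68 channel genes, 65 in all. Of these, 2 (3.08%) held the AP-1 element, 14 (21.5%) the short element, 5 (7.69%) GCGGGGGCG and 1 (1.54%) GCGTGGGCG. The shares among all 32851 windows of this length were 6.75%, 17.8%, 2.57% and 0.536%. Median G and C content was 59.2% in the channel windows and 52.4% in all windows, and its part in these shares was not tested. A match is a description of letters and no binding was measured here.

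Among voltage-gated calcium channels, the pore gene of the cardiac L-type channel had higher values in the knockout and that of the N-type channel did not separate the genotypes. Cacna1c, the L-type pore gene, read 2436, 2620 and 1980 on the wild-type arrays and 3782, 3448 and 3763 on the knockout arrays. All 3 knockout arrays were above the wild-type arrays. The means were 2345 ± 329 and 3664 ± 187 (SD, n = 3 each), a 1.57-fold difference (log2 change 0.65 ± 0.17, 95% confidence interval 0.27 to 1.02, limma adjusted p = 0.206). Over 19 alternative settings the Cacna1c change lay between 0.53 and 0.73. Those that alter only the filter, the variance model or the replicate block cannot move a log2 change.

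Cacna1b, which encodes the N-type pore that carries much of the calcium current of chromaffin cells, read 1242, 1751 and 1162 in wild-type and 1778, 1685 and 1533 in knockout glands. Wild-type array 2 lay within the knockout values, so the groups overlapped (log2 change 0.28, interval -0.20 to 0.77, limma adjusted p = 0.657). The change was 0.17 without wild-type array 3 and 0.46 without wild-type array 2. The auxiliary gene Cacna2d1, whose product helps bring the pore to the membrane, had 2124 ± 712 in wild-type and 2569 ± 290 in knockout glands (SD, n = 3 each; log2 change 0.32, but 0.13 without wild-type array 1 and 0.57 without wild-type array 2). Cacnb2, a cytoplasmic beta subunit, had 2527 ± 486 and 2633 ± 497 (log2 change 0.06). Both overlapped between the genotypes, and the Cacnb2 value changed sign without knockout array 1, knockout array 3 or wild-type array 1.

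The other 8 calcium channel genes were dim. They were the pore genes Cacna1a, Cacna1e, Cacna1g, Cacna1h and Cacna1s and the auxiliary genes Cacna2d3, Cacng1 and Cacng2. Cacna1a, Cacna1e, Cacna1g and Cacna1h, the genes of the P/Q-type, the R-type and 2 T-type channels, had wild-type means below 200. The largest difference was that of Cacna1s, the pore of skeletal muscle, which read 131, 681 and 132 in wild-type and 577, 797 and 503 in knockout glands. Wild-type array 2 lay among the knockout arrays, and in the fit without filter the log2 change was 1.35 (unadjusted p = 0.0573 in limma). Cacng2 read 87.6, 155 and 82.9 in wild-type and 163, 178 and 175 in knockout glands, which did not overlap.

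All 6 sodium channel genes on the array were dim. They were the pore genes Scn1a, Scn3a, Scn8a, Scn9a and Scn10a and the related Scn7a, and no beta subunit gene was a member. Their highest signal on any array was 450, that of Scn8a, a neuronal channel, on wild-type array 2. Scn8a read 366, 450 and 309 in wild-type and 214, 107 and 352 in knockout glands, and its second probe set stayed between 11.7 and 24.7. Scn9a and Scn3a, known from chromaffin cells, stayed at or below 171 on every array. In the fit without filter none of the 6 had an unadjusted p under 0.05, and their groups overlapped.

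Voltage-gated potassium channels were tested for 2 of 16 pore genes and 1 of 5 accessory genes, and none separated the genotypes. Kcnh2, which encodes the ERG channel, read 3238, 4175 and 3467 in wild-type and 2590, 4769 and 4212 in knockout glands (log2 change 0.05, interval -0.48 to 0.58, limma adjusted p = 0.960). The value changed sign without knockout array 2 or 3, with knockout array 1 alone and in 2 further settings. Kcnq1, the pore of a slow delayed rectifier, read 1716, 2254 and 2134 in wild-type and 2211, 2072 and 3534 in knockout glands (log2 change 0.32). Knockout array 3 was the highest of the 6, and without it the change was 0.08; it was 0.21 without wild-type array 1. A second Kcnq1 probe set read 143, 892 and 756 on the knockout arrays and 511, 644 and 463 on the wild-type arrays. It was dim, and only the set of the relaxed design class that Affymetrix marks with an r was tested.

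Kcnab2, a beta subunit that binds the cytoplasmic side of Kcna channels, read 229, 951 and 621 in wild-type and 644, 725 and 1360 in knockout glands (log2 change 0.72, interval -0.45 to 1.89). The change was 0.16 without wild-type array 1, the lowest of the 6, 0.39 without knockout array 3 and 1.15 without wild-type array 2. Its second, dim probe set had the opposite sign, with 384 ± 47.3 in wild-type and 282 ± 151 in knockout glands (SD, n = 3 each). The tested set is of a design class that Affymetrix marks with an f, and the second set bears no such mark. The accessory genes Kcnab1, Kcnab3, Kcne1 and Kcne1l were dim. So were 14 pore genes: Kcna1, Kcna2, Kcna3, Kcna4, Kcna5, Kcna6, Kcna7, Kcnc1, Kcnd1, Kcnd2, Kcnd3, Kcnh1, Kcns1 and Kcns2. Their log2 changes without the filter ran from -0.48 to 0.27, and in none were the groups apart.

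Calcium-activated potassium channels held 2 of the 5 genes that separated the genotypes. Kcnma1, the pore of the large-conductance BK channel that shapes chromaffin cell action potentials, read 1597, 2224 and 2145 in wild-type and 2640, 3370 and 3492 in knockout glands. Each knockout array was above each wild-type array, with knockout array 1 nearest to them. The means were 1989 ± 341 and 3167 ± 461 (SD, n = 3 each), a 1.59-fold difference (log2 change 0.67 ± 0.20, interval 0.23 to 1.12, limma adjusted p = 0.275). The change was 0.42 with knockout array 1 alone and 0.39 in the fit adjusted for the 3' to 5' ratio.

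Kcnn1 encodes a small-conductance SK channel, opened by calcium through calmodulin, that sets the pause after an action potential. It read 328, 313 and 845 in wild-type and 999.9, 1348 and 1670 in knockout glands. The groups did not overlap, though wild-type array 3 came close to knockout array 1. The difference was 2.88-fold (log2 change 1.53 ± 0.41, interval 0.60 to 2.46, limma adjusted p = 0.235). Wild-type arrays 1 and 2 lay below the filter signal of 582, so that Kcnn1 passed the filter through its knockout values. The change was 0.99 in the fit adjusted for the 3' to 5' ratio.

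Kcnn4, the intermediate-conductance channel of blood and epithelial cells, read 1538, 1553 and 1314 in wild-type and 1142, 1169 and 1490 in knockout glands (log2 change -0.22, interval -0.68 to 0.25). Knockout array 3 lay within the wild-type range, and without it the change was -0.34. Kcnmb1, the smooth muscle BK beta subunit, and Kcnu1, a sperm-specific relative of Kcnma1, were dim and stayed at or below 253 on every array.

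**Figure D2:**
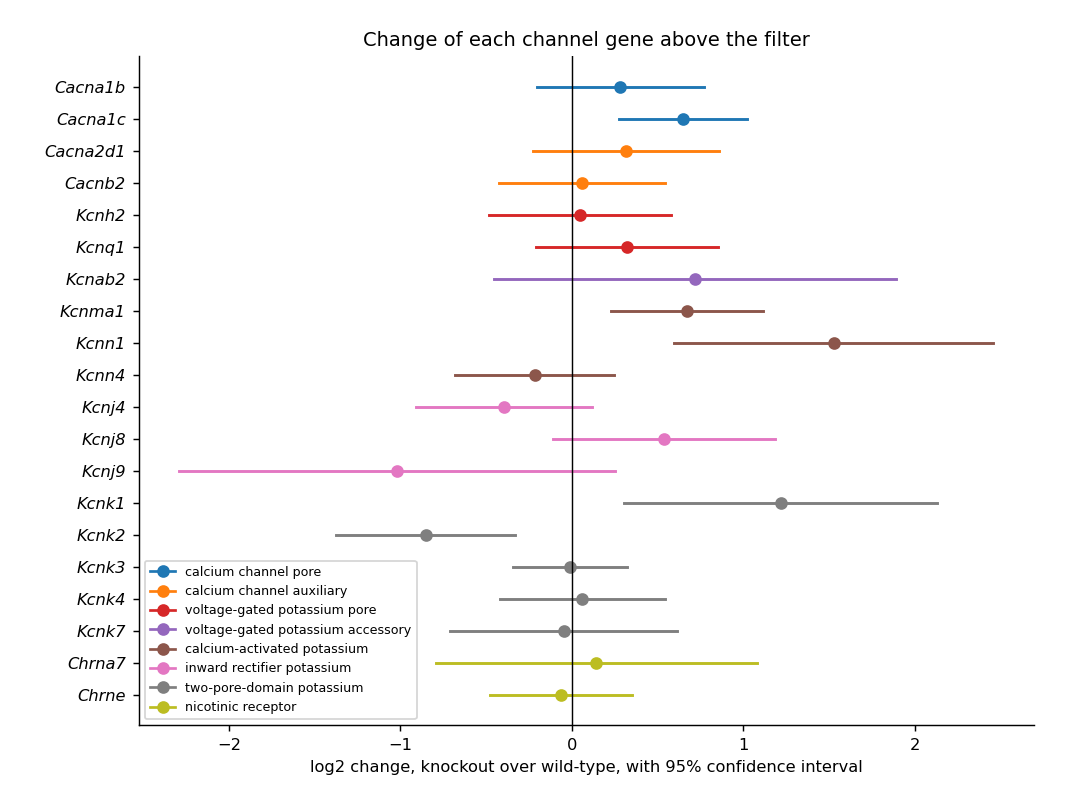
Log2 change (knockout over wild-type) of the 20 channel genes tested, with 95% confidence intervals from limma, coloured by subunit class. The intervals of Cacna1c, Kcnma1, Kcnn1 and Kcnk1 lie above 0 and that of Kcnk2 below 0, before any adjustment for multiple tests; the other 15 include 0.

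All 5 tandem-pore potassium channel genes were tested, and they pointed different ways. This family carries the background potassium current that sets the resting potential. Kcnk3, the TASK channel of zona glomerulosa cells, had nearly equal means, with 8541, 8629 and 9289 in wild-type and 7866, 10419 and 8200 in knockout glands. Its log2 change was -0.01 (interval -0.34 to 0.32), the narrowest interval among the 20 genes, and it changed sign under median scaling, with array weights and without knockout array 1, knockout array 3 or wild-type array 3.

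Kcnk2, a TREK channel gated by stretch and lipids and closed by cyclic AMP signalling, had lower values in the knockout. It read 7775, 4434 and 7046 in wild-type and 4201, 3130 and 3121 in knockout glands. All 3 knockout arrays were below the wild-type arrays, although wild-type array 2 exceeded knockout array 1 by little. The means were 6418 ± 1756 and 3484 ± 621 (SD, n = 3 each), a 1.81-fold difference (log2 change -0.85 ± 0.23, interval -1.37 to -0.33, limma adjusted p = 0.239). The Kcnk2 change stayed below 0 in all 19 alternative settings, from -1.10 to -0.57, and its adjusted p from 0.0879 to 0.998. Those of the filter, the variance model and the replicate block cannot move the change and are no check of its direction.

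Kcnk1, a widely expressed TWIK channel, read 947, 981 and 985 in wild-type and 1059, 3195 and 3490 in knockout glands. Knockout array 1 was just above the wild-type arrays, and knockout arrays 2 and 3 were far above them. The difference over all arrays was 2.33-fold (log2 change 1.22 ± 0.40, interval 0.30 to 2.13, limma adjusted p = 0.351). Without knockout array 1 the change was 1.77 and passed the threshold (limma adjusted p = 0.00516, from 0.00516 to 0.998 over the alternatives). It was 0.12 with knockout array 1 alone and -0.06 in the fit adjusted for the 3' to 5' ratio. Kidney, a neighbouring organ, is known to express Kcnk1. Its markers Umod, Kap, Slc34a1 and Slc12a1 were all dim, and their summed signal was 957, 701 and 1369 on the knockout arrays and between 1013 and 1776 on the wild-type arrays. A part of kidney tissue in the Kcnk1 values was not tested.

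Kcnk4, a TRAAK channel, had 1525 ± 304 in wild-type and 1577 ± 173 in knockout glands (SD, n = 3 each; log2 change 0.06). Kcnk7, a relative with no known current of its own, had 1668 ± 591 and 1596 ± 468 (log2 change -0.05). In both the groups overlapped, and both values changed sign when single arrays were left out.

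Inward rectifiers were tested for 3 of 11 genes, with overlapping groups in each. Kcnj8, a pore of vascular ATP-sensitive channels, read 948, 1120 and 665 in wild-type and 1693, 1008 and 1284 in knockout glands (log2 change 0.54, interval -0.11 to 1.18, limma adjusted p = 0.511), a change that was 0.35 without knockout array 1 and 0.33 without wild-type array 3. Kcnj4 read 1407, 1304 and 1081 in wild-type and 962, 820 and 1093 in knockout glands (log2 change -0.40). Kcnj9, a G protein-gated subunit, read 890, 1562 and 489 in wild-type and 191, 534 and 743 in knockout glands, with the widest interval of the 20 genes (log2 change -1.02, interval -2.29 to 0.25). The change was -0.47 without knockout array 1, the lowest of the 6, and -2.11 with it as the lone knockout array, and Kcnj9 fell short of the filter without wild-type array 1 or 2. Its second probe set, also tested, had a log2 change of -0.56 (limma adjusted p = 0.666).

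The other inward rectifiers, Kcnj1, Kcnj2, Kcnj3, Kcnj5, Kcnj6, Kcnj11, Kcnj12 and Kcnj15, were dim. Kcnj5, which is mutated in human aldosterone-producing adenomas, stayed at or below 93.6 on every array. Kcnj11, a pore of pancreatic ATP-sensitive channels, read 343, 706 and 378 in wild-type and 333, 334 and 406 in knockout glands. In the fit without filter none of these 8 had an unadjusted p under 0.05.

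Nicotinic receptor genes were tested for 2 of 8 members and did not separate the genotypes. Chrna7, an alpha subunit that forms receptors by itself, read 676, 1886 and 1629 in wild-type and 1423, 948 and 2081 in knockout glands (log2 change 0.14, interval -0.79 to 1.08, limma adjusted p = 0.933). The Chrna7 value changed sign without knockout array 3 or wild-type array 1. Chrne, the adult muscle epsilon subunit, had 2080 ± 200 in wild-type and 2002 ± 283 in knockout glands by its brightest probe set (SD, n = 3 each; log2 change -0.06). Its other probe sets had 545 ± 200 and 756 ± 228, at a log2 change of 0.48 (limma adjusted p = 0.679), and 81.2 ± 5.28 and 89.3 ± 5.21, which was dim. The Chrne probe sets thus differed in sign, and none separated the groups past the threshold. The brightest of them is, as for Kcnq1, of the relaxed design class that Affymetrix marks with an r.

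Chrna1, Chrna6, Chrnb1, Chrnb2, Chrnd and Chrng were dim. Chrna1, the muscle alpha subunit, read 90.8, 106 and 62.1 in wild-type and 110, 166 and 501 in knockout glands, and the groups did not overlap (log2 change 1.18 without the filter, unadjusted p = 0.0732 in limma). No probe set was annotated to the ganglionic subunit genes Chrna3, Chrna5 and Chrnb4, known from chromaffin cells, so they could not be followed. The same held for Cacna1d, Kcnk9, Kcnn2 and Kcnn3.

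**Figure D3:**
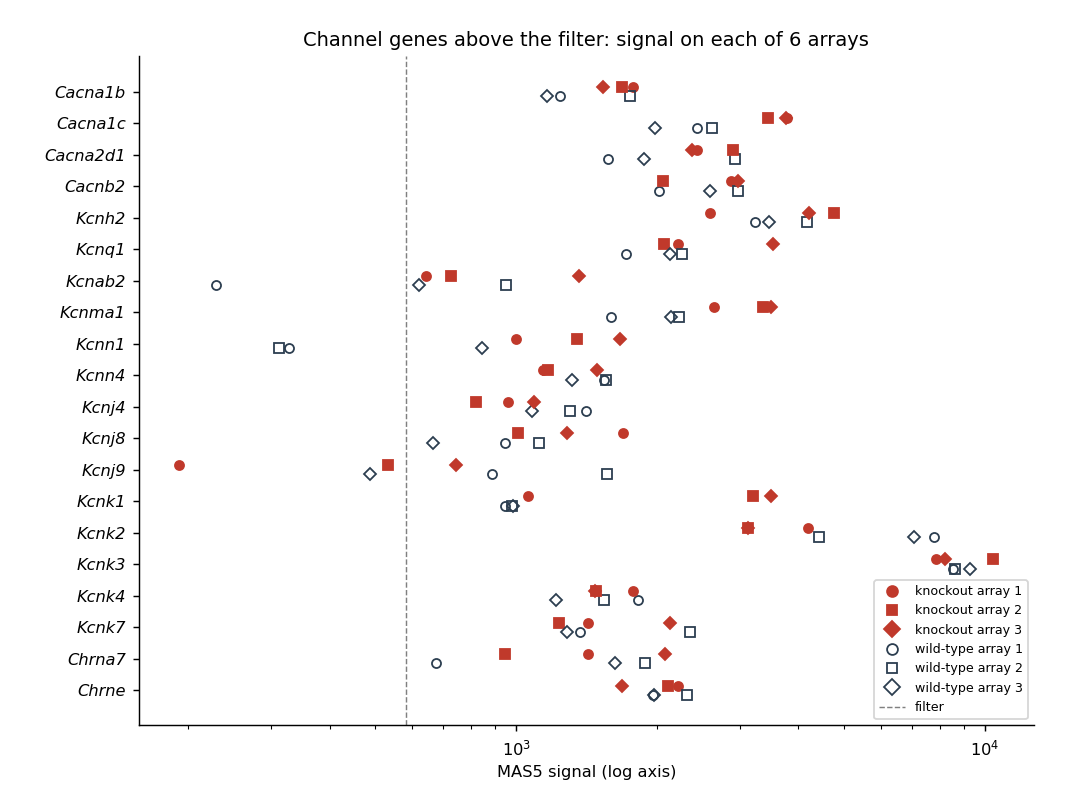
MAS5 signal (log axis) of the 20 channel genes tested on each of the 6 arrays, red for knockout and open dark symbols for wild-type, with circles, squares and diamonds for arrays 1, 2 and 3. The groups are apart for Cacna1c, Kcnma1, Kcnn1, Kcnk1 and Kcnk2 and overlap for the other 15; the dashed line marks the filter at a signal of about 582.

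Markers of cell types and of RNA quality also differed between the arrays. Of 13 chromaffin markers on the array, 11 were tested and 10 had higher values in the knockout (median log2 change 0.48), with none past the threshold. Phox2a among them was tested through its knockout values, while Hand2 and Syt1 were dim. Their summed signal was 244760 to 260590 on the knockout arrays and 187280 to 221640 on the wild-type arrays. These sums did not overlap, as for Cacna1c, Kcnma1 and Kcnn1, but a sum is weighted towards the brightest markers. Chgb, the brightest, read 93585, 120200 and 98209 on the knockout arrays and 69305, 77123 and 76132 on the wild-type arrays. Gata2, Npy, Penk and Snap25 were also apart, while Th, Pnmt, Ddc, Scg2, Phox2a and Gata3 overlapped. The part of the chromaffin markers in the higher values of these channel genes was not tested. The summed signal of 8 cortex markers was 470560 to 534410 on knockout and 440480 to 535410 on wild-type arrays. For 6 smooth muscle markers, of a cell type that also uses Cacna1c, Kcnma1 and Kcnj8, it was 6616 to 8785 and 5500 to 7258, and Myh11, Cnn1 and Smtn were dim. The 6 endothelial markers, all tested, had a median log2 change of 0.43, with 6 values higher, and summed to 24579 to 29469 and 19308 to 22235, which did not overlap. Eng, the brightest of them, read 12747, 15045 and 13681 on the knockout arrays and 10038, 9416 and 10331 on the wild-type arrays. Tek was also apart, while Pecam1, Cdh5, Kdr and Tie1 overlapped. Of 7 macrophage markers, 6 were tested and all 6 had higher values (median log2 change 0.71, above that of the chromaffin markers), 2 with an unadjusted p under 0.05 and none past the threshold in limma. The groups did not overlap for Csf1r, the receptor for macrophage colony-stimulating factor (log2 change 0.91, limma adjusted p = 0.186). The macrophage markers summed to 13046 to 23952 and 10877 to 13699, adipocyte markers to 30788 to 45394 and 22400 to 37069, Schwann cell and glial markers to 11051 to 15268 and 13023 to 16640, and liver markers to 16008 to 34794 and 12603 to 34408, each with overlap. Their part in the channel values was not tested either.

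Knockout arrays 2 and 3 also stood apart from the other 4 arrays. Of 15 skeletal muscle markers, 10 were tested, 8 had higher values (median log2 change 0.88) and none passed the threshold. Acta1 and Atp2a1 among them were tested through their knockout values. All 15 together summed to 14122, 100940 and 51574 on knockout arrays 1 to 3 and to between 14243 and 15212 on the wild-type arrays. Gapdh control probe sets had a 3' to 5' signal ratio, a sign of RNA integrity, of 0.831, 1.30 and 1.29 on knockout arrays 1 to 3. Values between 0.762 and 0.807 were found on the wild-type arrays. For actin control probe sets the ratio was 1.32, 1.69 and 1.72, beside 1.14 to 1.22 on the wild-type arrays. By both controls every knockout array, array 1 included, lay above every wild-type array, so ratio and genotype cannot be fully told apart. The macrophage sum was also highest on knockout arrays 2 and 3, at 23952 and 19706, beside 13046 on knockout array 1. Among liver markers, Alb was highest there too, with signals of 2909 and 2811. It had 504 on knockout array 1 and 678 to 832 in wild-type glands. The liver sum hides this because Cyp2e1 is far brighter, and Cyp2e1, Cps1 and Apoa1 did not share the pattern. Kcnk1 was likewise high on knockout arrays 2 and 3. The muscle receptor gene Chrna1, at a far lower signal, read 110, 166 and 501 on knockout arrays 1 to 3, so that only array 3 stood well above array 1. For the muscle channel genes Cacna1s, Cacng1, Chrnb1, Chrnd and Chrng, knockout arrays 2 and 3 did not both exceed the other 4. Kcnma1 and Kcnn1 were also highest, and Kcnk2 lowest, on knockout arrays 2 and 3, while Cacna1c was not higher there than on knockout array 1. In the fit adjusted for the Gapdh ratio the log2 changes were 0.39 for Kcnma1, 0.99 for Kcnn1, -0.58 for Kcnk2 and 0.73 for Cacna1c. The part of these array differences in the values of Kcnk1, Kcnma1, Kcnn1 and Kcnk2 was not tested apart from the settings given.

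**Figure D4:**
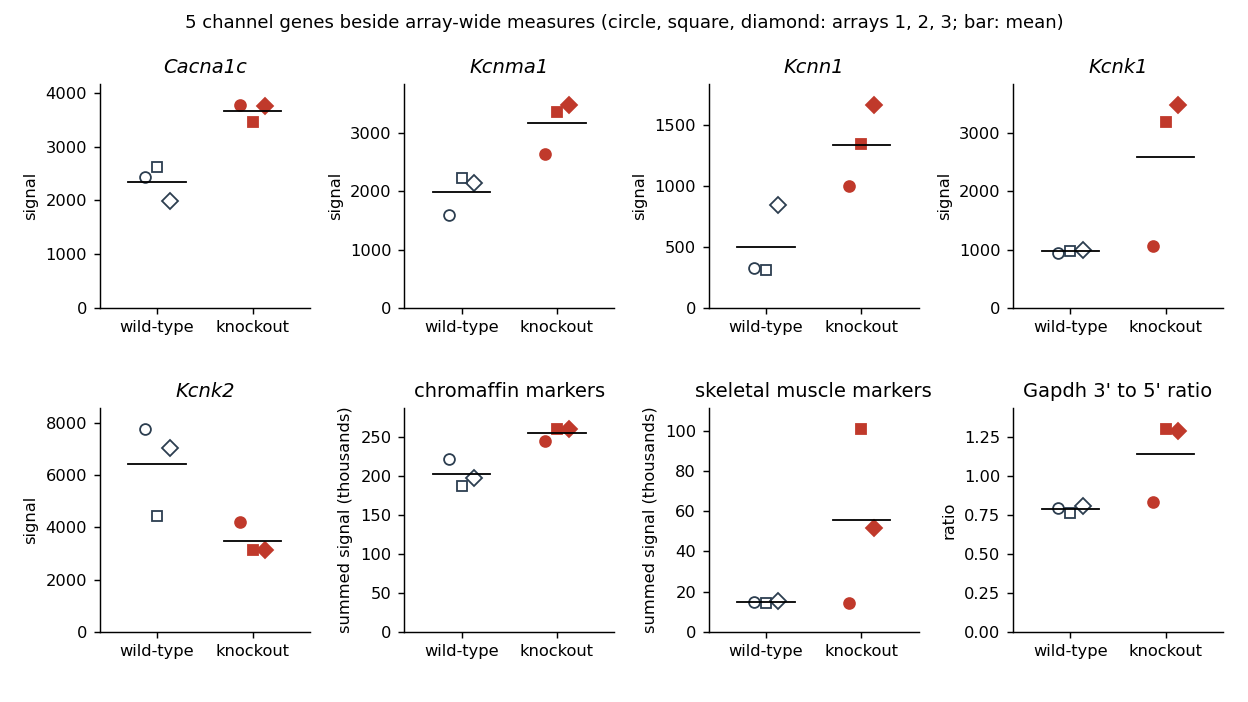
Signal of Cacna1c, Kcnma1, Kcnn1, Kcnk1 and Kcnk2, summed signal of the chromaffin and skeletal muscle markers, and the Gapdh 3' to 5' ratio, per array (circle, square and diamond for arrays 1, 2 and 3; bar for the mean of 3; axes start at 0). Kcnk1, the muscle markers and the ratio are high on knockout arrays 2 and 3, while Cacna1c is higher on all 3 knockout arrays. Kcnma1 and Kcnn1 are highest, and Kcnk2 is lowest, on knockout arrays 2 and 3.

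Other genes of membrane excitability and calcium handling, such as ion pumps, intracellular calcium channels and chloride channels, gave no call either. Of 79 genes listed, 53 were on the array and 26 were tested, of which 18 had higher and 8 lower values (median log2 change 0.17). None passed the threshold, and 5 had an unadjusted p under 0.05 in limma, 4 higher and 1 lower, where the share over all probe sets tested was 11.3%. Fxyd2 and Atp2a1, among the 4, had wild-type means below the filter and were tested through their knockout values, so that the count is no support. Slc12a2, a sodium, potassium and chloride cotransporter, read 5536, 4531 and 7012 in wild-type and 7626, 11521 and 12263 in knockout glands, without overlap (log2 change 0.87, limma adjusted p = 0.206). Clcn4, a chloride and proton exchanger, read 4326, 5382 and 4924 in wild-type and 3682, 2539 and 3194 in knockout glands, also without overlap (log2 change -0.64, limma adjusted p = 0.251). For Fxyd2, a regulator of the sodium pump, the log2 change was 1.40 (limma adjusted p = 0.423). The remaining 2, Atp2a1 and Casq1, are skeletal muscle genes that were also on the muscle marker list and highest on knockout array 2.

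**Figure D5:**
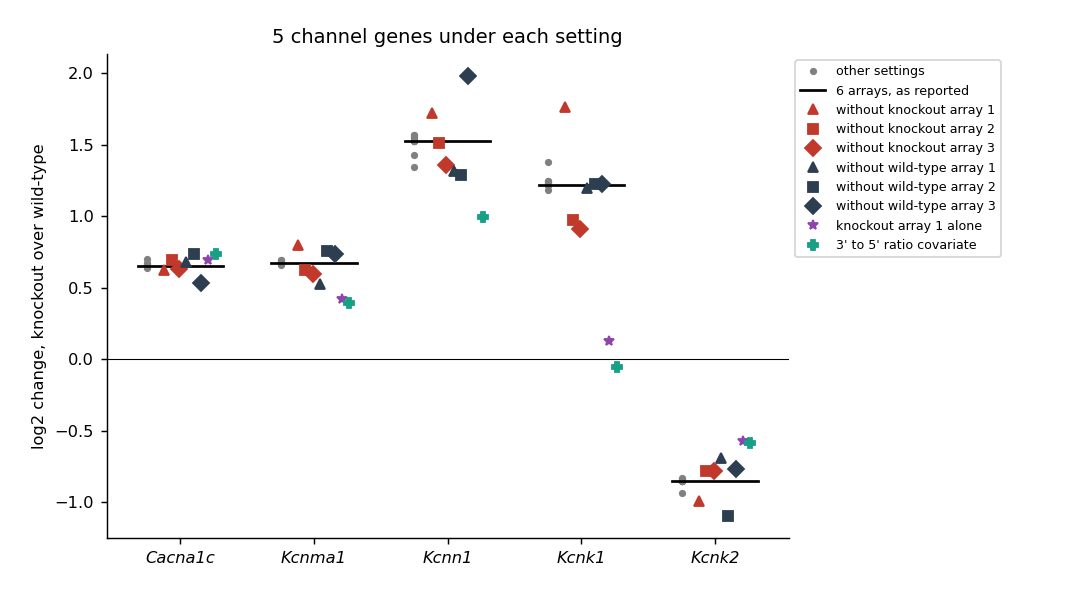
Log2 change (knockout over wild-type) of Cacna1c, Kcnma1, Kcnn1, Kcnk1 and Kcnk2 as reported (line) and under each alternative setting (symbols). Cacna1c stays between 0.53 and 0.73 and Kcnk2 between -1.10 and -0.57, while Kcnk1 runs from -0.06 to 1.77.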

How the data were processed

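The deposited table gives an intensity on a linear scale for each probe set and array. MAS5 is named for it in the submitters' processing notes, without a version or scaling target. Detection calls were not used here. Trimmed of 2% at either end, every array had a mean of about 2501, and no further scaling was applied. RNA was labelled with biotin, 1 sample per array, per the labels. Each array was read as 1 of the 3 mice per group that the series describes.

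66 control probe sets were left out of 12488. Values were transformed as log2(signal + 16), filtered at the 40th percentile and fitted in R 4.3.3 by limma 3.58.1 (trended eBayes, two-sided). Fold changes are on that scale, which understates dim genes. Log2 changes carry standard errors and signals SDs. Precision rests on 3 arrays per group. The fit was tested on simulated data.

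The members, lists and tests were chosen with earlier results of these data known. Named were the 20 tested genes, genes known from chromaffin cells, glomerulosa or muscle, and genes with several probe sets. Cacng2, Slc12a2, Clcn4, Fxyd2, Atp2a1 and Casq1 were picked after their values were seen, as were the promoter motifs.

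Alternatives were the pseudocount, filter, scaling, variance model, array weights, replicate block, arrays left out, adjustment for the Gapdh 3' to 5' ratio and the choice of probe set.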

Additional observations from a re-analysis of the deposited data

How the results depend on the processing

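No channel gene was called in 18 of the 19 alternative settings of the fit, nor when every probe set was counted. One of the 18, with knockout array 1 alone, takes its spread from the wild-type arrays only and assumes that the lone array varies like them, so it is no sign of stability. Kcnk1 alone was called without knockout array 1 (0 to 1 when single arrays were left out). The count over all genes, 33, was 17 with eBayes without trend, 13 with knockout array 1 alone, 12 in the fit adjusted for the 3' to 5' ratio and 15 to 141 when single arrays were left out. The median log2 change of channel genes was 0.178 with that adjustment and 0.175 with the mean over the probe sets of a gene. It was -0.0270 to 0.400 when single arrays were left out, over 19 to 21 genes as the filter was redone.

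Replicate numbers were not taken to pair the samples. Deviations of same-numbered arrays correlated at 0.255, -0.0352 and -0.0389, and those of differently numbered arrays between -0.181 and 0.250. With 3 arrays per group these values cannot settle whether arrays were paired. With the replicate number as a block, the count over all genes was 57 and that of channel genes 0. Every replicate number occurs in both genotypes, so this block cannot move a log2 change and is no check of sign.

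Signs changed for 7 genes with small values and for Kcnk1, whose change was 1.22. Kcnk3 was 0.0144 under median scaling and 0.00384 with array weights, Kcnk7 was 0.0295 with array weights, Chrne was 0.0941 and Kcnh2 -0.47 with knockout array 1 alone, and after adjustment for the ratio Chrne was 0.13, Kcnk1 -0.0555 and Kcnh2 -0.54. The cause of these shifts and of those above was not tested. Over the fits that left out an array, Cacnb2 ranged from -0.0950 to 0.224, Kcnk3 from -0.134 to 0.0686, Kcnk4 from -0.0908 to 0.199, Kcnk7 from -0.271 to 0.225, Kcnh2 from -0.126 to 0.313, Chrna7 from -0.309 to 0.426 and Chrne from -0.137 to 0.0601. Of 366 values of single genes, 339 kept their direction and stayed short of the threshold. Part of them could not differ in direction, since the filter, the variance model and the replicate block leave log2 changes as they are. With 3 arrays per group, intervals of the 20 genes reached from 0.333 to 1.27 on either side of the log2 change.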
